A study of Sus scrofa with 12 samples.

Results

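The regions described here are merged m6A peaks that lie wholly in the 3' untranslated region (3' UTR) of an mRNA. They were chosen by annotation alone, as peaks listed under 1 gene that is not a long noncoding RNA, with a span of at most 10000 bp and the 3' UTR as their only listed position. The rule gave 3797 peaks on 2533 genes, which is 15.2% of the 25055 distinct peaks in the deposited table and 19.3% of its 19700 single-gene mRNA peaks up to that span. Of the 8736 genes with a single-gene peak, 29.0% had a 3' UTR peak, and 3786 of the 3797 peaks carry a gene symbol.

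IPEC-J2 cells, an epithelial line from the pig small intestine labelled as wild type, were kept for 24 h with 25 µM OAA (OAA group) or with 0 µM OAA (CON group), and fragmented RNA was sequenced by MeRIP-seq with and without an m6A antibody. The title of the series names 2-oxindole-3-acetic acid and lipid accumulation, as well as PSMD3, a proteasome subunit, and YTHDF2. Replicates were numbered 1 to 3 within each treatment, and every number has a library labelled input and one labelled IP, giving 12 libraries in 4 groups of 3. The labels do not say whether the replicates were grown apart, so the spread behind each p-value is that of these samples and may be technical. All libraries came from 1 cell line and carry the same batch label.

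Reads counted in peaks came to between 19027974 and 21452502 per OAA library and between 16491095 and 23010413 per CON library among those labelled input. Among those labelled IP they came to between 4363009 and 4607452 per OAA library and between 3709352 and 4464058 per CON library. The library codes and the titles disagree about which libraries met the antibody, and groups here follow the titles. The ratio of a peak is therefore given as labelled input divided by labelled IP, as the authors' own log2 ratios run. If the titles are right, a positive ratio means depletion by the antibody rather than enrichment. EPCAM, CDH1, KRT8 and KRT18, which mark epithelium, lay between 62.3 and 424 FPKM in all 6 libraries with FPKM. The brush border gene VIL1 averaged 0.246 FPKM and the intestinal factor CDX2 0.0237 FPKM, while sucrase-isomaltase, SI, averaged 12.8 FPKM. Of the goblet cell genes, MUC2 and TFF3 were listed at 0 and FCGBP averaged 2.98 FPKM. Of the leukocyte genes, PTPRC was listed at 0, and CD14 averaged 0.682 FPKM and CD3E 0.474 FPKM. The endothelial genes CDH5, PECAM1 and KDR averaged 3.78, 1.44 and 1.15 FPKM.

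N6-methyladenosine (m6A) is laid down on mRNA by a nuclear complex built around METTL3 and METTL14, removed by FTO and ALKBH5, and read by proteins of the YTH and IGF2BP families. In mammals it is typically dense around stop codons and along the 3' UTR, the stretch after the coding sequence that also holds sites for microRNAs, AU-rich element binding proteins and polyadenylation. YTHDF2, one of the readers, recruits a deadenylase complex and is known for shortening the life of bound mRNAs.

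The 3' UTR peaks were narrow. Their listed spans had a median of 200 bp and quartiles of 150 and 325 bp, against medians of 300 bp for peaks wholly in coding sequence, 325 bp for stop codon peaks and 300 bp for all peaks. At the narrow end 277 peaks were at the lowest listed span of 50 bp, and 80 peaks were over 1000 bp. At the rule's limit, the widest peak taken spanned 8425 bp, and 13 otherwise fitting peaks were left out, the smallest at 10216 bp. From the 3' edge of the peak to the 3' end listed with it, the median distance was 939 bp with quartiles of 291 and 2237 bp. Of all 3797 peaks 784 (20.6%) ended within 250 bp of that end and 96 ran past it, and in 54 of the 832 genes with several 3' UTR peaks the table lists more than 1 such end. Most of the genes, 1701, had a single 3' UTR peak, 543 had 2, 203 had 3 and 86 had 4 or more, up to 11. In 489 of the 2533 genes all listed single-gene peaks were 3' UTR peaks.

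Together the 3' UTR peaks held 11.8% ± 0.0577 of the reads in peaks in OAA and 11.7% in each CON library among those labelled input, and 12.7% ± 0.173 in OAA and 12.8% ± 0.115 in CON among those labelled IP (SD, n = 3 each). Stop codon peaks, by contrast, held 37.4% ± 0.306 in OAA and 37.4% ± 0.289 in CON of the labelled input reads, and 30.2% ± 0.493 in OAA and 30.4% ± 0.231 in CON of the labelled IP reads. Reads were concentrated, since the 379 peaks with the most reads held 68.4% of the CPM (counts per 1000000 reads in peaks, after scaling) of all 3' UTR peaks. The median peak had 8.04 CPM in OAA and 7.89 CPM in CON in the labelled input libraries, against 11.2 and 11.3 CPM in the labelled IP libraries. At least 10 reads in every library were reached by 2873 of the 3797 peaks, and peaks with few reads are measured with less precision than those with many.

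The peak with the most reads, not scaled for span, lies in ITGA3, which encodes the alpha-3 subunit of laminin-binding integrin (chromosome 12, positions 26268042 to 26269191, coordinates as deposited, 1-based, with the genome build not given in the sources used here). It had 5439, 5484 and 4872 CPM in the OAA and 5054, 5004 and 5170 CPM in the CON labelled input libraries, against 1449, 1422 and 1332 CPM in the OAA and 1332, 1343 and 1367 CPM in the CON labelled IP libraries. All 6 labelled input values lie above all 6 labelled IP values, and the OAA and CON values overlap in each kind of library. ITGA6, the alpha-6 subunit of the same receptor class, followed a like pattern with 3010, 2953 and 3142 CPM in OAA and 2969, 3127 and 3184 CPM in CON labelled input, against 682, 669 and 757 CPM in OAA and 734, 720 and 753 CPM in CON labelled IP. The palmitoyltransferase gene ZDHHC18 averaged 4507 ± 430 CPM in OAA and 4354 ± 148 CPM in CON labelled input, against 1735 ± 85.6 CPM in OAA and 1748 ± 57.4 CPM in CON labelled IP (SD, n = 3 each). In TPT1, which encodes the translationally controlled tumour protein, the 2 kinds of library were close, with 3167 ± 101 CPM in OAA and 3062 ± 171 CPM in CON labelled input and 2940 ± 96.6 CPM in OAA and 2851 ± 114 CPM in CON labelled IP (SD, n = 3 each). Its log2 peak ratio in CON was 0.10 ± 0.05 (SE, edgeR adjusted p = 0.0744).

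In untreated cells the peaks wholly in the 3' UTR leaned towards the labelled IP side. Their median log2 peak ratio in CON was -0.26, with quartiles of -1.06 and 0.76, over the 3697 peaks tested by edgeR's quasi-likelihood F test; the other 100 had too few reads. Of these, 990 (26.8%) were called higher and 1495 (40.4%) lower in labelled input at an adjusted p under 0.05, and 1212 were not called. Over all 24145 peaks tested, 33.9% were called higher and 34.2% lower, around a median of 0.03. Peaks wholly in coding sequence had 32.6% higher and 36.1% lower around a median of -0.06, and stop codon peaks 46.4% higher and 31.5% lower around a median of 0.32. Start codon peaks leaned the same way as the 3' UTR peaks, with 24.4% higher and 34.1% lower around a median of -0.16. Peaks wholly in the 5' UTR had 34.9% higher and 17.7% lower around a median of 0.48. These ratios are relative, because the scaling sets the typical peak near 0. With library size alone the median of all peaks moved to -0.28 and that of the 3' UTR peaks to -0.57, with 771 called higher and 1808 lower. A change of scaling shifts every peak by about the same amount, so it cannot test the difference between classes. When all peaks listing the 3' UTR were taken, alone or among other positions, the median was 0.08 over 8378 tested peaks.

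The lean was alike in all replicates. The median log2 ratio of the 3' UTR peaks, computed for each replicate number after adding 0.5 CPM, was -0.19, -0.19 and -0.23 in OAA and -0.25, -0.23 and -0.21 in CON. All 6 medians lie below the 6 of coding peaks, which averaged -0.05 ± 0.011 in OAA and -0.05 ± 0.013 in CON (SD, n = 3 each). Stop codon peaks averaged 0.30 ± 0.034 in OAA and 0.32 ± 0.021 in CON (SD, n = 3 each).

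The ratio varied with the width of the peak. The 623 tested 3' UTR peaks of up to 100 bp had a median log2 ratio of -1.09, with 1.93% called higher and 59.1% lower. Those over 100 and up to 200 bp had -0.77, with 9.65% higher and 53.9% lower, those over 200 and up to 400 bp 0.15, with 36.6% and 29.9%, and the 596 peaks over 400 bp 0.86, with 67.6% and 15.1%. Narrow peaks of the other classes lay close to these values, with coding and stop codon medians of -1.03 and -1.15 up to 100 bp. Over 400 bp the classes spread, with 0.28 for coding and 1.11 for stop codon peaks on either side of the 3' UTR value. Spearman's rank correlation between span and ratio across peaks was 0.51 over the 3697 3' UTR peaks, 0.24 over coding peaks and 0.53 over stop codon peaks; the peaks share libraries and the spans come from peak calling on the same reads, so this is a description. Wider peaks also held more reads, with a median of 46 CPM over 400 bp and 3.05 CPM up to 100 bp in CON labelled input, and the part of read depth in this pattern was not tested.

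**Figure D1:**
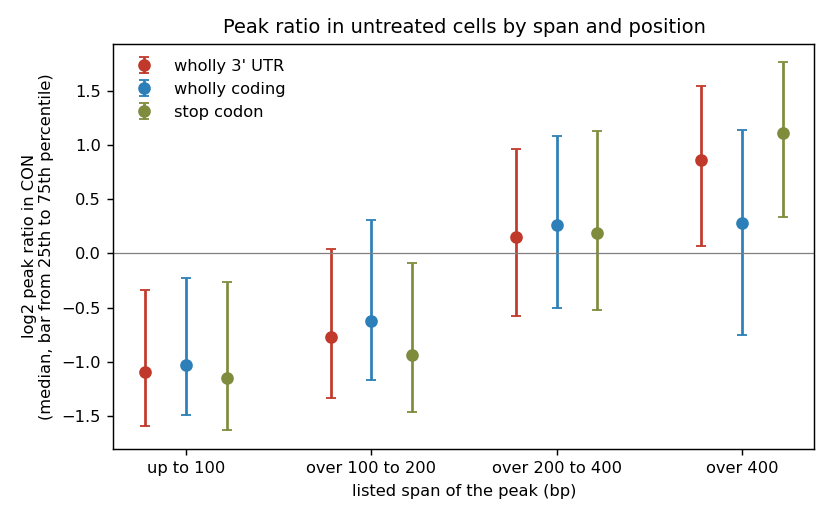
Median log2 peak ratio in CON (labelled input over labelled IP, bars from the 25th to the 75th percentile) by listed span in bp, for peaks wholly in the 3' UTR, wholly in coding sequence and at the stop codon. The 3' UTR medians climb with span through -1.09, -0.77, 0.15 and 0.86.

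Medians by distance to the listed 3' end covered a narrower range than those by width. Peaks ending within 250 bp of it had a median of -0.32, those over 250 and up to 1000 bp away -0.40, those over 1000 and up to 3000 bp away -0.19 and those farther away -0.09, while the 95 tested peaks running past it had a median of 0.06. In the 810 genes with at least 2 tested 3' UTR peaks, the ratio of the peak nearest the stop codon minus that of the peak nearest the 3' end had a median of -0.04, and it was above 0 in 396 of them. The spread inside a gene was larger than this, with a median range of 1.17 between its highest and lowest 3' UTR peak.

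Named peaks were taken from those called by edgeR with at least 5 CPM on the higher side, at least 30 reads on the lower side and no overlap between the 3 labelled input and the 3 labelled IP values. Among the highest ratios of these in CON were those of BCL7A, ABR, PTTG1IP, SNAP47, EEF1D, CCDC6, BTD, DTX2 and CAMK2G, with log2 ratios between 3.99 and 2.95. BCL7A encodes a subunit of the BAF chromatin remodelling complex, and its peak (chromosome 14, 30664692 to 30665166, minus strand, 475 bp) ended 100 bp before the listed 3' end. It had 171, 167 and 166 CPM in CON labelled input, against 10.5, 8.2 and 13.3 CPM in CON labelled IP. The log2 ratio was 3.99 ± 0.13 (SE, edgeR adjusted p = 3.91e-22), and 4.03 in OAA. The BCL7A peak was also far above the other peaks of its own gene, as given below.

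ABR, a regulator of small GTPases, and PTTG1IP, whose product binds the securin PTTG1, had far more reads. ABR had 1009, 1077 and 1037 CPM in CON labelled input against 115, 113 and 109 CPM in CON labelled IP, a log2 ratio of 3.21 ± 0.07 (SE, edgeR adjusted p = 3.71e-26). PTTG1IP had 2024, 2016 and 1469 CPM against 194, 227 and 223 CPM, and replicate 3 of labelled input was the low one. EEF1D, a subunit of the exchange factor for elongation factor 1A, rested on few reads, with 20, 25 and 29.2 CPM in CON labelled input against 1.79, 4.8 and 2.17 CPM in CON labelled IP. CCDC6, the biotin-recycling enzyme gene BTD, the E3 ubiquitin ligase gene DTX2 and the calmodulin-dependent kinase gene CAMK2G had between 174 and 285 CPM in every CON labelled input library and between 18.8 and 40.1 CPM in every CON labelled IP library. Except for EEF1D at 250 bp and SNAP47, a SNARE protein gene, at 350 bp, these peaks were 375 bp wide or more, and DTX2 reached 3032 bp.

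Under the same limits the lowest ratios in CON were in EDEM3, CTPS1, TRIB2, MYL6, PI4K2A, TOMM20, USP12, ZNF655, MKNK2 and NPM3, with log2 ratios between -2.45 and -2.28. These peaks were 50 to 175 bp wide. EDEM3, which encodes an endoplasmic reticulum protein that marks misfolded glycoproteins for degradation, had 8.2, 10.3 and 12.6 CPM in CON labelled input, against 63.4, 57.6 and 49.3 CPM in CON labelled IP (chromosome 9, 125911538 to 125911637, minus strand). Its log2 ratio was -2.45 ± 0.18 (SE, edgeR adjusted p = 1.3e-13). MYL6, a myosin light chain gene, had the most reads of the 10, with 55.1, 36.6 and 38.8 CPM in CON labelled input against 225, 227 and 225 CPM in CON labelled IP, a log2 ratio of -2.37 ± 0.12 (SE, edgeR adjusted p = 2.06e-17). CTPS1, which makes CTP, TOMM20, the outer membrane receptor of mitochondrial protein import, and NPM3, a nucleoplasmin family chaperone gene, had between 6.33 and 12.3 CPM in every CON labelled input library and between 31.9 and 52.9 CPM in every CON labelled IP library. MKNK2, a kinase of the translation factor eIF4E, had 15.6, 7.81 and 14.3 CPM against 61.8, 54.6 and 69.1 CPM.

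**Figure D2:**
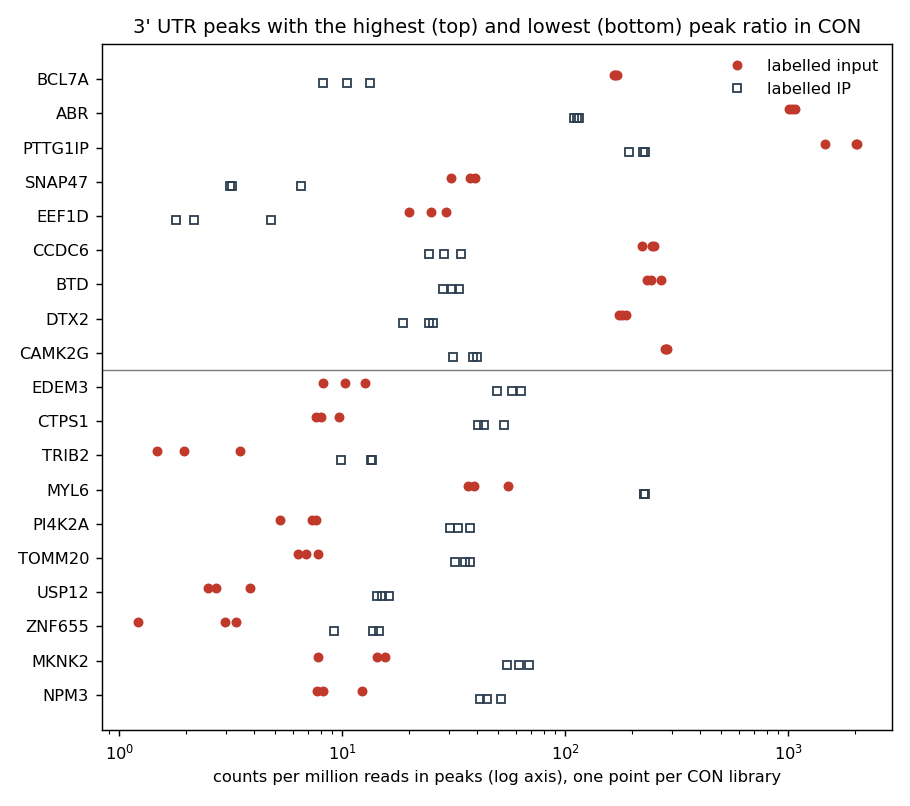
CPM (log axis) of 3' UTR peaks with the highest (top) and the lowest (bottom) ratios in CON, 1 point for each CON library, filled circles for labelled input and open squares for labelled IP. Genes were chosen with no overlap of labelled input and labelled IP, and BCL7A has 166 to 171 CPM against 8.2 to 13.3 CPM.

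Set against the summed peaks of its own gene, a 3' UTR peak was more often lower than higher. This comparison asks how position within an mRNA bears on the ratio, since the peaks of a gene share its transcript level. In CON, edgeR's exon-level test, run over all 15645 peaks of genes with several peaks, covered 3377 3' UTR peaks and called 522 (15.5%) higher and 1337 (39.6%) lower than their gene, around a median log2 difference of -0.31. Over all peaks tested, 19.6% were higher and 31.0% lower. Peaks wholly in coding sequence were close to the 3' UTR peaks, with 14.6% higher and 38.4% lower around -0.30. Stop codon peaks had 22.5% higher and 20.2% lower around 0.03. Among the 3023 3' UTR peaks of genes that also have peaks elsewhere, 464 were called higher and 1258 lower, around a median of -0.35, and among the 354 of genes with 3' UTR peaks alone, 58 were higher and 79 lower, around -0.04.

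The difference varied with the class of peak on the other side and with width. In the 1350 genes with both kinds of peak, the median 3' UTR ratio minus the median stop codon ratio was -0.55 in the middle gene, and the 3' UTR was lower in 872 (64.6%). For the 355 3' UTR peaks that had a stop codon peak of their gene within 50 bp of the same width, the middle difference was 0.11 and 150 were lower. Against coding peaks the middle difference was -0.03 over 754 genes, with 384 lower, and 0.12 over the 293 width-matched peaks, with 134 lower. Against start codon peaks it was -0.51 over 859 genes, with 540 lower, and still -0.59 over the 244 width-matched peaks, with 168 lower.

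Under the same limits on reads and overlap as for the ratio in CON, the peaks farthest above their gene were in EEF1D, AKT2, BCL7C, SH3GLB1 and RBM19. The EEF1D peak (chromosome 4, 983473 to 983722) was 4.09 above its gene on the log2 scale (edgeR adjusted p = 9.31e-20). AKT2, a kinase of the insulin pathway, had 11, 12.4 and 13.6 CPM in CON labelled input against 3.36, 2 and 3.14 CPM in CON labelled IP, and stood 3.65 above its gene (edgeR adjusted p = 8.27e-20). BCL7C, from the same BAF subunit family as BCL7A, stood 2.88 above, the membrane-curving protein gene SH3GLB1 2.80 and the ribosome biogenesis gene RBM19 2.42, and BCL7A itself 2.07 (edgeR adjusted p = 3.62e-22). Farthest below their gene under those limits stood TAF5L, a subunit of a histone acetyltransferase complex, at -4.03, AGPAT3, an acyltransferase of phospholipid and triglyceride synthesis, at -3.91, EDEM3 at -3.91, the mitochondrial ribosomal protein gene MRPL54 at -3.75 and the SUMO-targeted ubiquitin ligase gene RNF4 at -3.73. All 5 of these low peaks were 50 to 100 bp wide. RNF4, for example, had 12.4, 10.3 and 13.2 CPM in CON labelled input against 58.7, 58 and 50 CPM in CON labelled IP.

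**Figure D3:**
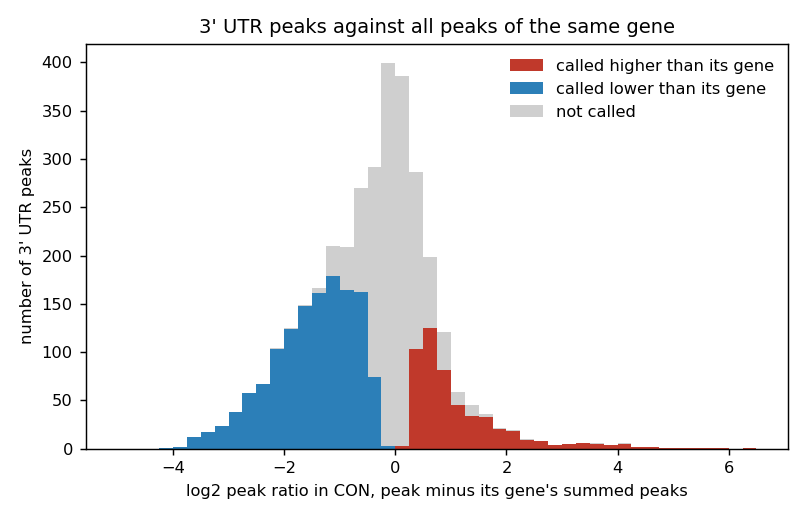
Number of 3' UTR peaks by the log2 peak ratio in CON minus that of the summed peaks of the same gene, with peaks called higher, called lower and not called by edgeR's exon-level test. The lower side holds 1337 called peaks and the higher side 522.

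The genes with the most 3' UTR peaks differed in whether high and low stretches lay in 1 UTR. DEF8 had peaks called higher and peaks called lower in CON. SS18L1 had lower calls and 1 high peak with 0 reads in CON labelled IP. The calls in SNX29 were all higher, and those given for PRKX and KANSL3 were all lower. SNX29, a sorting nexin gene with 11 such peaks (chromosome 3, 30585162 to 30589836), had 3 called higher in CON at 1.64, 1.80 and 2.24, of 275, 300 and 425 bp; 1 further called peak rested on 1 read in the labelled IP libraries, and the remaining tested peaks were between -0.47 and 0.65 and not called. DEF8, a gene of vesicle traffic with 10 peaks (chromosome 6, 140897 to 146871), had 3 called higher, at 1.46, 1.37 and 0.53, with widths of 750, 500 and 500 bp, and 2 called lower, at -0.94 and -0.96, of 175 and 100 bp. With library size alone the value of 0.53 was 0.23 and not called, and 3 more DEF8 peaks were called lower, at -0.29, -0.36 and -1.16. PRKX, a cAMP-dependent kinase gene on chromosome X with 8 peaks, had none called higher and 3 called lower, at -0.80, -1.09 and -1.50. With library size alone 4 more PRKX peaks were called lower, at -0.60, -0.60, -0.85 and -1.17. In SS18L1, a gene of neuronal chromatin remodelling with 8 peaks, 2 were called lower, at -0.79 and -1.83, and 1 narrow peak with 38 reads in CON labelled input and 0 in CON labelled IP was at least 3.11-fold higher in labelled input, taking 3 reads over the group as the floor. KANSL3, a subunit of a histone acetyltransferase complex with 7 peaks, had 2 called lower, at -0.93 and -0.59, and 2 more with library size alone, at -0.62 and -0.68. Leaving out single libraries changed the call of 4 of these peaks. SS18L1 at -0.79 lost it without CON labelled input replicate 3 (-0.54) or CON labelled IP replicate 1 (-0.73), and KANSL3 at -0.59 without any 1 CON labelled input replicate or CON labelled IP replicate 1 (-0.48 to -0.55). A DEF8 peak at 0.38 gained it without CON labelled input replicate 1 (0.56) or 2 (0.57), and a PRKX peak at -0.87 without CON labelled input replicate 1 (-1.13) or CON labelled IP replicate 1 (-1.08).

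**Figure D4:**
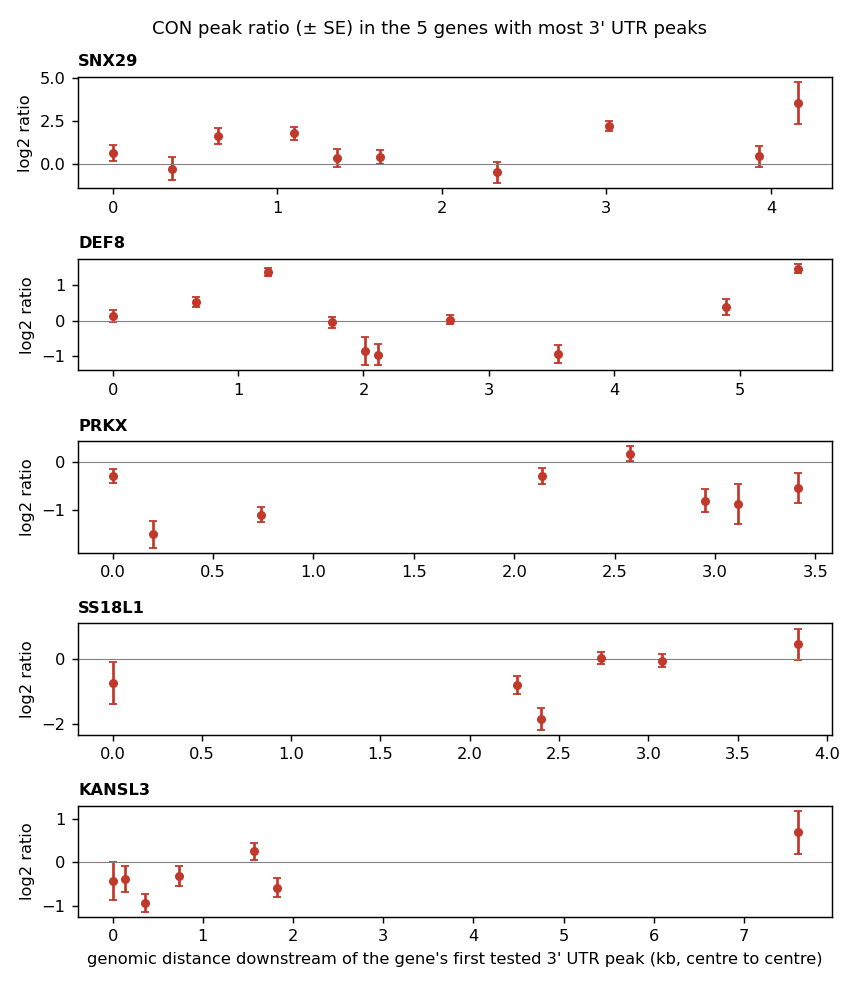
Log2 peak ratio in CON ± SE of each tested 3' UTR peak in the 5 genes with the most of them, against genomic distance in kb downstream of the first tested peak. DEF8 has 3 called high peaks (0.53 to 1.46) among values down to -0.96, and the rightmost SNX29 point rests on 1 labelled IP read.

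The counts of gene groups that follow are descriptions, read against the 26.8% higher and 40.4% lower of all 3' UTR peaks and their median of -0.26. They give the ratio in CON and are not set against the gene unless stated. The 13 peaks on 11 genes of short-lived regulators, mostly immediate early transcription factors and feedback genes, had 4 called higher and 4 lower around -0.18, or 4 and 7 around -0.49 with library size alone. SGK1, a stress-induced kinase gene, was highest in reads with 587, 711 and 680 CPM in CON labelled input against 212, 183 and 204 CPM in CON labelled IP, a log2 ratio of 1.72 ± 0.08 (SE, edgeR adjusted p = 6.29e-19). The stress transcription factor gene ATF3 had 1.84 and ID2, an inhibitor of bHLH factors, 0.88.

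Of the m6A machinery, 24 genes had a peak but 5 of them a 3' UTR peak. Their 6 peaks had 2 called higher and 1 lower around 0.15, or 2 and 2 around -0.15 with library size alone. FXR2, from the FMRP family of RNA-binding proteins, had 12.4, 13.7 and 15 CPM in CON labelled input against 2.24, 2.8 and 1.93 CPM in CON labelled IP, a log2 ratio of 2.54 ± 0.27 (SE, edgeR adjusted p = 1.03e-09). METTL14, the partner of the catalytic METTL3, had a 100 bp peak at -1.28 ± 0.41 (SE, edgeR adjusted p = 0.00707), with 2.51, 1.82 and 1.3 CPM in CON labelled input against 4.92, 5.4 and 3.38 CPM in CON labelled IP. The reader gene IGF2BP2 was at 0.23, turning to -0.07 with library size alone, and the methyltransferase gene METTL16 at -0.59. Neither was called, but METTL16 was called with library size alone (-0.89, edgeR adjusted p = 0.0238). METTL3, FTO, ALKBH5, YTHDF2 and PSMD3 had no peak under the rule.

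Some factors that act on 3' UTRs carried such peaks themselves. Of the 47 regulators of microRNA silencing, deadenylation and AU-rich or Pumilio binding, 39 had a peak and 14 of them a 3' UTR peak. Among all genes with a single-gene peak the share with a 3' UTR peak was 29.0%. The 14 genes had 16 such peaks, of which 15 were tested, with 3 called higher and 10 lower around -0.58. CNOT2, a deadenylase scaffold gene, was at 0.70 ± 0.13 (SE, edgeR adjusted p = 2.3e-05) with 44.6, 46.5 and 47.7 CPM in CON labelled input against 30.9, 28.8 and 25.4 CPM in CON labelled IP. The microRNA processing gene DGCR8 was at 0.30 and called, but not without CON labelled IP replicate 1 (0.29) or 3 (0.27), and it was at 0.00 with library size alone. PAN3, of another deadenylase, was at 0.25 and not called, and it turned to -0.06 with library size alone. It was called with DESeq2 (0.33), and (0.31 to 0.39) without any 1 OAA labelled input replicate, CON labelled input replicate 1 or 2, or CON labelled IP replicate 1. Of the cleavage and polyadenylation factors, CSTF1 was called higher at 0.54, while CPSF2 at -0.65 and PCF11 at -1.25 were called lower. CSTF1 was at 0.23 and not called with library size alone.

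Of the lipid genes, a theme of the series title, fatty acid genes lay mostly on the lower side of the ratio in CON. This was less so against their own gene, and it did not hold for cholesterol pathway genes. The widths of the peaks in these groups were not compared. The fatty acid uptake, synthesis and triglyceride assembly group had 19 peaks on 14 genes, of which 1 was called higher and 14 lower around -1.29. GPAT4, an enzyme of the first step of triglyceride synthesis, was the higher one, with 248, 248 and 257 CPM in CON labelled input against 101, 92 and 98.6 CPM in CON labelled IP, a log2 ratio of 1.37 ± 0.09 (SE, edgeR adjusted p = 4.57e-15). ELOVL6, a fatty acid elongase gene, was at -1.31 ± 0.11 (SE, edgeR adjusted p = 8.35e-12), and ACSL1, which activates long-chain fatty acids, at -0.07 and not called, or called at -0.38 with library size alone. Fatty acid oxidation and lipolysis had 12 peaks on 7 genes, 11 tested, with 3 higher and 7 lower around -1.36. Its nuclear receptor gene PPARD was called at 1.34, and the carnitine transferase gene CPT1A at 0.34, a call that was lost without CON labelled IP replicate 1 (0.24) and with library size alone (0.04). Of 8 cholesterol pathway peaks on 5 genes, 3 were called higher and 2 lower around -0.04, or 3 and 3 around -0.34 with library size alone. INSIG1, which retains SREBP factors in the endoplasmic reticulum, had peaks at 1.30 and 1.81, both called. Against their own gene, 16 peaks of fatty acid uptake, synthesis and triglyceride assembly were tested, with 4 called higher and 7 lower around -0.17. For oxidation and lipolysis 11 were tested, with 1 higher and 3 lower around -0.01, beside -0.31 for all 3' UTR peaks. The 8 cholesterol pathway peaks had 3 higher and 2 lower around -0.04.

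Junction and signalling genes also had more lower than higher calls. The tight junction, adhesion and integrin group had 24 peaks on 13 genes with 3 called higher and 18 lower around -0.63, and the 3 higher ones were ITGA3 at 1.91, ITGA6 at 2.07 and the junctional adhesion gene F11R at 0.21, which turned to -0.09 with library size alone. Growth factor, TGF-beta, Wnt and Hippo genes had 24 peaks on 15 genes, 23 tested, with 4 higher and 15 lower around -1.10, or 2 and 17 around -1.40 with library size alone. SMAD3, a TGF-beta signal transducer, was at 1.18 ± 0.09 (SE, edgeR adjusted p = 3.59e-13), and EGFR at -1.38 ± 0.11 (SE, edgeR adjusted p = 6.75e-13) with 39.8, 37.7 and 35.6 CPM in CON labelled input against 101, 89.4 and 104 CPM in CON labelled IP. The ligand gene HBEGF was called at 0.30, but not without CON labelled IP replicate 1 (0.26), and it turned to -0.01 with library size alone. Of 12 stress and unfolded protein response peaks on 9 genes, 3 were higher and 6 lower around -0.75, or 2 and 7 around -1.05 with library size alone. The group held the disulfide isomerase gene PDIA4 at 0.76 and 2 peaks of the chaperone gene DNAJC3 at 0.01 and -1.05, of which the first turned to -0.29 and was called lower with library size alone. AHRR, the repressor of the aryl hydrocarbon receptor, had 3 peaks, of 375, 100 and 75 bp, at 0.59, -1.84 and -0.88. The last of these was not called without CON labelled input replicate 3 or CON labelled IP replicate 1 (-0.65 each).

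Cell cycle and p53 genes had 12 peaks on 8 genes, 2 higher and 5 lower around 0.01, or -0.30 with library size alone. The proliferation marker gene MKI67 was at -1.64 ± 0.12 (SE, edgeR adjusted p = 1.05e-13). The kinase gene AURKA at 0.04 and the cyclin gene CCND1 at 0.21 were not called, and they turned to -0.26 and -0.09 with library size alone, where AURKA was called lower (edgeR adjusted p = 0.00533). CCND1 was called with DESeq2 (0.30, DESeq2 adjusted p = 0.0164), without any 1 OAA labelled input replicate (0.28 each), and without CON labelled input replicate 2 (0.33) or 3 (0.31).

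The housekeeping groups had few 3' UTR peaks. Among 67 genes with a peak that were taken as cytosolic ribosomal protein genes by their RPL or RPS symbol, 4 had a 3' UTR peak. Of these 1 was called higher and 2 lower, or 0 and 2 with library size alone. RPS24 was the most read with 372, 337 and 318 CPM in CON labelled input against 1090, 972 and 998 CPM in CON labelled IP, a log2 ratio of -1.58 ± 0.07 (SE, edgeR adjusted p = 2.13e-18). RPS4X was also called lower, with 30.3, 22.3 and 24.6 CPM in CON labelled input against 102, 99 and 109 CPM in CON labelled IP. The 1 higher call was RPL7L1 at 0.27, a ribosomal protein-like gene that the symbol took in. It was not called without CON labelled IP replicate 2 (0.21), and turned to -0.03 with library size alone. Of 54 oxidative phosphorylation genes with a peak, 3 had a 3' UTR peak, ATP5F1D at -1.55, SDHC at -1.49 and COX6B1, which had 137 reads in CON labelled input and 0 in CON labelled IP and was thus at least 11.2-fold higher in labelled input. Of 37 proteasome and deubiquitination genes with a peak, the lid subunit gene PSMD11 at 0.44 and the deubiquitinase gene USP7 at -1.27 had a 3' UTR peak, and PSMD11 was at 0.14 and not called with library size alone.

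Of the large families, 51 ZNF zinc finger genes had 79 peaks, 76 tested, with 24 called higher and 20 lower around 0.05, or 17 and 28 around -0.25 with library size alone. ZNF629 was at 1.73, ZNF862 at 1.08 and ZNF24 at 0.49, the last not called with library size alone (0.19). Against their own gene 74 ZNF peaks were tested, with 10 called higher and 32 lower around -0.62. The 58 SLC solute carrier genes had 80 peaks, 78 tested, with 21 higher and 41 lower around -0.66. SLC37A2, a sugar phosphate transporter gene, was at 0.88, the amino acid transporter gene SLC38A2 at -0.98 and the vitamin transporter gene SLC5A6 at -1.37. Against their own gene 73 SLC peaks were tested, with 9 called higher and 26 lower around -0.21.

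In OAA-treated cells the ratios were close to those in CON. The median log2 ratio of the 3697 tested 3' UTR peaks was -0.23 in OAA, with 1014 (27.4%) called higher and 1474 (39.9%) lower, against 34.1% and 34.4% of all peaks. Both treatments called 869 of the peaks higher and 1340 lower. The single peak called in opposite directions lies in EMC10, a subunit of a membrane protein insertion complex, at 0.30 in OAA and -0.24 in CON. Among called peaks with at least 5 CPM on the higher side, at least 30 reads on the lower side and no overlap between labelled input and labelled IP, the largest OAA ratios were 4.03 for BCL7A, 3.70 for EEF1D, 3.25 for SNAP47, 3.15 for BTD and 3.13 for DENND2A, a Rab exchange factor gene. The lowest of these were -2.62 for MYL6, -2.56 for the heparan sulfate proteoglycan gene GPC1, -2.50 for the sterol-binding protein gene OSBPL11, and -2.36 for a 50 bp PRKX peak and for NPM3.

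No 3' UTR peak had a changed ratio with OAA at an adjusted p under 0.05. Of 3697 peaks edgeR's interaction test called 0, DESeq2 also called 0, and 144 (3.9%) had an unadjusted p under 0.05, 87 of them upward and 57 downward, against 4.46% of all 24145 peaks, of which 0.0% were called. The lowest adjusted p was 0.999. The 95% interval of the change was ± 0.64 on the log2 scale at the median, and it lay within a 2-fold change either way for 2117 peaks (57.3%). In the other peaks it reached beyond 2-fold. Its width differed between peaks and was ± 0.19 for the well-read ABR peak. Changes smaller than the interval of a peak could not be told from 0.

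The smallest unadjusted p-values for this change, none of which passed, were in GPC1, EMC10, PRKX, AP5Z1, DCTD, HS1BP3, UPF1, MACROH2A1, MAPK1IP1L and MICAL3. GPC1 (chromosome 15, 139484118 to 139484217) had 8.49, 7.33 and 8.23 CPM in OAA and 15.3, 11.4 and 10.9 CPM in CON labelled input, and 47.7, 52.8 and 41 CPM in OAA and 43.2, 38 and 44.7 CPM in CON labelled IP. The OAA labelled input values are all below the CON ones, while OAA and CON overlap in labelled IP. No overlap in labelled input, either way, was seen in 11.7% of tested 3' UTR peaks and 11.1% of all peaks. Its difference between OAA and CON was -0.82 ± 0.22 (SE, edgeR adjusted p = 0.999). For EMC10 the difference was 0.53 ± 0.15 (SE, edgeR adjusted p = 0.999), with 73.6, 80.5 and 66.7 CPM in OAA and 68.6, 59.5 and 64.8 CPM in CON labelled input, and 66.3, 60.2 and 53.3 CPM in OAA and 75.7, 72 and 80.2 CPM in CON labelled IP. UPF1, the central factor of nonsense-mediated decay, had 0.59 ± 0.18 (SE, edgeR adjusted p = 0.999). HS1BP3 had 0 reads in OAA labelled IP and 91 in OAA labelled input, at least 8.13-fold higher in labelled input, beside 8 and 52 reads in CON. In MACROH2A1, which encodes a variant histone, the CON labelled IP libraries held 2, 7 and 2 reads.

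Within the labelled input libraries, no 3' UTR peak was called different between OAA and CON. In bulk RNA, fewer cells of a type and less RNA per cell cannot be told apart. Of 3794 peaks tested, edgeR called 0 and DESeq2 0, and 164 (4.32%) had an unadjusted p under 0.05, 106 of them up and 58 down, against 5.2% of all 24835 peaks, of which 0.0% were called. The lowest adjusted p was 0.872. The median change was 0.02 on the log2 scale, its 95% interval ± 0.45 at the median, and the interval lay within a 2-fold change for 2914 peaks (76.8%).

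TMEM101, a membrane protein gene whose 3' UTR peak (chromosome 12, 19168637 to 19168886) is its only peak, had the smallest p. It had 181, 175 and 154 reads in OAA and 95, 82 and 95 reads in CON labelled input. The OAA counts are all above the CON counts, and the difference was 0.91 ± 0.21 (SE, edgeR adjusted p = 0.872). ARHGAP35, a gene for an activator of small GTPases, had 190, 138 and 164 reads in OAA against 106, 67 and 111 in CON, a difference of 0.81 ± 0.22 (SE, edgeR adjusted p = 0.94). PRKX followed with a 475 bp peak at 322, 346 and 318 reads in OAA against 268, 171 and 246 in CON, and ABHD13 at 88, 110 and 91 against 59, 41 and 44. In these genes too the OAA and CON counts do not overlap. Such a gap in CPM was found in 443 (11.7%) of the tested 3' UTR peaks and 11.1% of all peaks. Picking genes by their small p also favours it. The muscle-type ubiquitin ligase gene FBXO32 had the smallest difference of the 10 genes, -0.23 ± 0.07 (SE, edgeR adjusted p = 0.94), with 128, 129 and 133 CPM in OAA and 155, 158 and 146 CPM in CON, where the groups do not overlap.

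No 3' UTR peak was called in the labelled IP libraries either. Of 3165 3' UTR peaks tested, edgeR called 0 and DESeq2 0, and 118 (3.73%) had an unadjusted p under 0.05, 64 of them up and 54 down, against 3.89% of all 20098 peaks, of which 0.00498% were called. The number at an unadjusted p under 0.05 was 223 without OAA labelled IP replicate 3, and 49 with DESeq2. The 95% interval was ± 0.41 at the median, and 2664 peaks (84.2%) had an interval within a 2-fold change. HDDC3, a gene for a nucleotide hydrolase, had the smallest p, with 76, 82 and 88 reads in OAA against 112, 135 and 101 in CON, and a difference of -0.63 ± 0.17 (SE, edgeR adjusted p = 0.998). CSF1, the macrophage growth factor gene, had 43, 52 and 54 reads in OAA against 70, 70 and 87 in CON, a difference of -0.75 ± 0.22 (SE, edgeR adjusted p = 0.998). The OAA counts of both genes are all below the CON counts, and neither passed. In labelled IP, OAA and CON did not overlap in CPM in 302 (9.54%) of the tested 3' UTR peaks and 9.64% of all peaks. Leaving out OAA labelled IP replicate 3 gave 1 call each way, HSD11B1L, a hydroxysteroid dehydrogenase-like gene, at 0.22 (edgeR adjusted p = 0.0181, 0.998 with all libraries) and GCLM, the modifier subunit of glutathione synthesis, at -0.31 (edgeR adjusted p = 0.0479, 0.998 with all libraries), both chosen for mention after their values were seen.

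**Figure D5:**
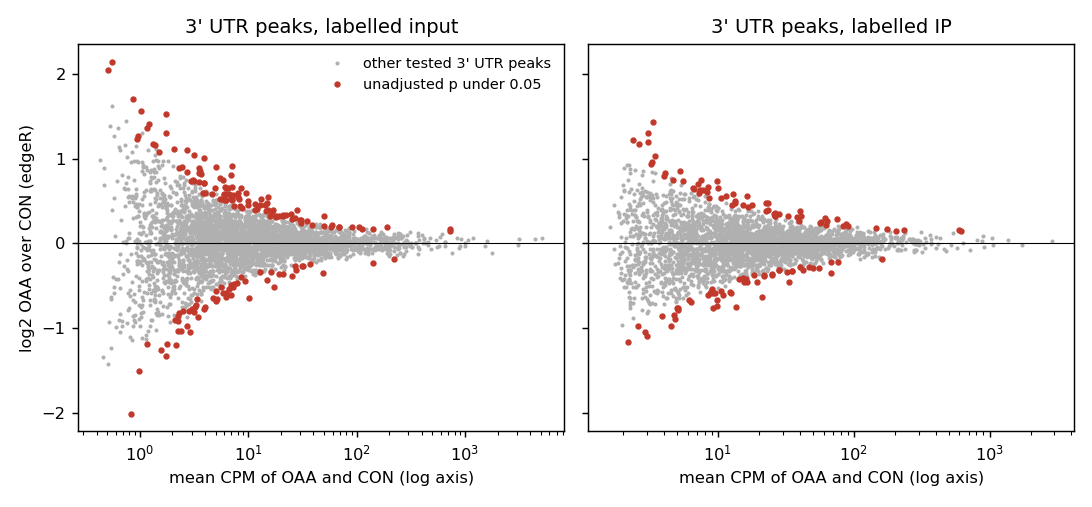
Log2 change OAA over CON of each tested 3' UTR peak against its mean CPM (log axis), in the labelled input and the labelled IP libraries, with peaks of unadjusted p under 0.05 in red. Peaks lie on both sides of 0 in both panels, and none passed the adjusted threshold.

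Against its own gene, no 3' UTR peak was called between OAA and CON either. In the labelled input libraries 0 of 3451 peaks were called by edgeR's exon-level test, and 74 (2.14%) had an unadjusted p under 0.05, against 2.57% of all 16122 peaks, of which 0.0% were called. No peak of the gene groups above was called in any comparison of OAA with CON.

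The genes that carry 3' UTR peaks were expressed, and none was called different in FPKM. Their median in the labelled IP libraries was 9.88 FPKM with quartiles of 3.85 and 22.2, near the 10.7 of genes with other peaks. Genes without a peak of their own had a median of 0.0128 FPKM. A peak can be called only where there are reads, so this gap follows from peak calling. On log2(FPKM + 1), limma called 0 of 2333 such genes, and 54 (2.31%) had an unadjusted p under 0.05, against 3.31% of all 10763 genes, of which 0.0% were called. Without OAA labelled IP replicate 3 that number was 275 of 2329, still with 0 called, and without any 1 other library it was 32 to 47. RDH10, a retinol dehydrogenase gene, had the smallest p, with 15.2, 15 and 17 FPKM in OAA against 19.2, 18.7 and 20 FPKM in CON, a difference of -0.28 ± 0.07 (SE, limma adjusted p = 1.0). The interferon lambda receptor gene IFNLR1 had 1.44, 1.58 and 1.19 FPKM in OAA against 0.669, 0.952 and 0.689 FPKM in CON, and the fatty acid receptor gene PPARA 1.93, 2.02 and 1.99 against 1.59, 1.29 and 1.53 FPKM. OAA and CON did not overlap in these 3 genes, which were picked by their small p, and none passed. FDFT1, which makes squalene, averaged 42.7 ± 0.582 FPKM in OAA and 38.3 ± 1.22 FPKM in CON (SD, n = 3 each, limma adjusted p = 1.0). Across the 3697 peaks, Spearman's rank correlation between the FPKM of the gene and the peak ratio in CON was -0.42, a description in which both measures use the labelled IP libraries.

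In the authors' deposited table, whose scale is not that of the ratios above, all 3797 3' UTR peaks had a positive log2 ratio in CON. There the median log2 ratio was 3.76 in OAA and 3.67 in CON, beside 4.04 and 3.97 over all peaks of the authors' deposited table. Its p-value for the difference between treatments was under 0.05 for 93 of the 3' UTR peaks (2.45%), beside 2.69% of all peaks, and the lowest adjusted p of a 3' UTR peak in the authors' deposited table was 0.9998.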

How the data were processed

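Per the file headers, the deposited peak table holds raw read counts of each of 12 libraries in each merged peak, with the authors' log2 ratios and p-values, and the deposited gene table holds FPKM of the 6 libraries labelled IP. Bowtie2 and HISAT2 were used per the submitters' processing notes, but no source used here gives their versions, a peak caller or a genome build. All library columns were matched to a sample (0 unmatched). Peak starts count from 0 in the table and from 1 in the text. The 3' UTR peaks, gene lists and tests were chosen with earlier results of these data known.

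Counts were tested with edgeR 4.0.16 (TMM, default expression filter, quasi-likelihood F test, and diffSpliceDGE for peaks within genes) in R 4.3.3, and Benjamini-Hochberg adjustment ran over all features. Ratios used all 12 libraries in 1 fit of 4 groups, and OAA against CON used 6. FPKM of at least 1 in 3 libraries were tested with limma 3.58.1 (trend) on log2(FPKM + 1), which understates changes of low genes. Values shown as CPM are counts per 1000000 reads in peaks after TMM scaling. Standard errors were taken from the F statistic. Alternatives were library size alone, DESeq2 1.42.0, no filter, a replicate block, other pseudocounts and each library left out.

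Named peaks were, for the ratio in CON, the 10 highest and 10 lowest among those called, with at least 5 CPM on the higher side, 30 counts on the lower side and no overlap; 5 and 5 for other tests, or the 10 smallest p where under 5 were called; the 3 most read of each list, some not printed, and some results not reported here; and the 5 genes with most peaks. The code-and-title conflict was not resolved. Sequence features of the peaks were not analysed here.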

Additional observations from a re-analysis of the deposited data

How the results depend on the processing

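Counts of 3' UTR peaks called stayed within 1.5 times of those reported under all alternatives run, apart from the 1 call each way in labelled IP without OAA labelled IP replicate 3. For the ratio in CON, 990 were higher and 1495 lower, against 771 and 1808 with library size alone, 1025 and 1502 without the filter, 1045 and 1419 with DESeq2, 972 and 1488 with the replicate number as a block and 975 and 1491 with the culture (treatment and number together) as a replicate block, the last chosen after seeing the data. For OAA these blocks gave 1007 and 1464, and 1005 and 1471; within genes the replicate block gave 514 and 1328; it changed no call between OAA and CON, where all counts stayed at 0. Deviations from the group mean correlated weakly between same-numbered libraries, at -0.0588 to 0.0563 with pairs across treatments included. Between labelled input and labelled IP of 1 treatment they ran from -0.0139 to 0.0563 for the same number and from -0.0374 to 0.0272 for different numbers. With 3 libraries in a group, this cannot decide whether libraries of the same number come from the same culture. Without single libraries the ranges were 899 to 1035 and 1349 to 1506 for CON, 936 to 1056 and 1356 to 1475 for OAA, 438 to 548 and 1215 to 1341 within genes, and 0 to 1 each way for OAA against CON in labelled IP.

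The median CON ratio of -0.26 turned to 0.08 when all peaks listing the 3' UTR, alone or among other positions, were taken. It was -0.28 at spans up to 1000 bp. With library size alone, which moved all peaks down, values near 0 turned negative: IGF2BP2 -0.07, PAN3 -0.06, DNAJC3 -0.29, F11R -0.09, HBEGF -0.01, AURKA -0.26, CCND1 -0.09, RPL7L1 -0.03, DEF8 -0.29 and -0.18, PRKX -0.13, SS18L1 -0.27 and KANSL3 -0.05. With DESeq2, ACSL1 turned to 0.01, DEF8 to 0.03 and SS18L1 to 0.04. Without single libraries, uncalled values ranged across 0, from -0.15 to 0.05 in ACSL1, -0.01 to 0.13 in DNAJC3, -0.01 to 0.14 in AURKA, -0.77 to 0.11 and -0.46 to 0.07 in 2 SNX29 peaks, -0.03 to 0.11, -0.23 to 0.03 and -0.01 to 0.29 in 3 DEF8 peaks, and -0.01 to 0.15 and -0.16 to 0.14 in 2 SS18L1 peaks. The cause was not tested. Over 182 named values under 2741 alternatives, 2654 kept direction and call, 21 lost the call, 27 gained it and 39 turned, most of them near 0. The labelled IP libraries hold between 3709352 and 4607452 reads in peaks, and 2873 of the 3797 3' UTR peaks reached 10 reads in every library. Narrow peaks held fewer reads, with medians in CON labelled input of 3.05 CPM up to 100 bp and 46 CPM over 400 bp.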
